A study of Arabidopsis thaliana with 15 samples.

Results

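AT5G44020 and AT1G04040 are nuclear genes of Arabidopsis thaliana whose products resemble the plant acid phosphatases of the haloacid dehalogenase (HAD) superfamily. They are 2 of the 13355 genes with a probe set of their own on the Affymetrix Arabidopsis genome array used in the study, and each is read by 1 probe set. They were chosen because they had some of the largest falls in both double knockouts against wild type, so their differences in those comparisons are given as descriptions, without a test.

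Rosette leaves of plants aged 4 weeks, in the Columbia accession and on soil with 8 h of light a day, were compared over 5 genotypes with 3 biological replicates and so 3 arrays each. The genotypes were wild type, nhx5-2 (a GABI T-DNA line in AtNHX5), nhx6-2 (a SALK T-DNA line in AtNHX6), nhx5-2/nhx6-2, which joins those alleles, and nhx5-1/nhx6-1, which joins a WiscDsLox insertion in AtNHX5 with another SALK insertion in AtNHX6. The NHX5 and NHX6 proteins sit in endosomes and trade protons for sodium or potassium. Each allele is a single insertion line, and as neither targeted gene had a listed probe set, the genotypes rest on the labels.

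HAD-type acid phosphatases of plants release phosphate from organic esters at acid pH, and the best known in Arabidopsis are the vegetative storage proteins VSP1 and VSP2. These are glycoproteins of the vacuole that accumulate in young shoots and flowers, are induced by jasmonate and wounding, and store amino acids for later use. They reach the vacuole through the secretory and endosomal route on which NHX5 and NHX6 act. AT5G44020 and AT1G04040 are known in the annotation by identifier only, and VSP1 and VSP2 had no listed probe set here.

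The values are the authors' deposited scores, on a log-like scale with a mean near 0 on each array and a base that the sources used here do not state. Spiked-in bacterial and phage transcripts give these units a size: each doubling of their nominal amount added 0.681 units (SD 0.0281, 15 arrays), and folds below rest on that slope. The lowest of these spike-ins averaged 0.41 to 0.98 units per array, so folds that reach below it extrapolate the slope. Control probe sets with no target in plant RNA had array medians of −0.81 to −0.57 and serve as the background level. Array nhx5-1/nhx6-1 replicate 3 and nhx5-2 replicate 1 had a narrower spread of values (SD 0.762 and 0.797) than the others (0.876 to 0.893). The 3′ minus 5′ signal of the actin and GAPDH controls, a sign of RNA quality, ran from 1.79 to 1.97 in wild type, 1.45 to 1.57 in nhx5-2, 1.55 to 1.69 in nhx6-2, 1.75 to 2.14 in nhx5-2/nhx6-2 and 2.27 to 2.40 in nhx5-1/nhx6-1. Of the markers fixed for leaf and other cell types, RCA, the Rubisco activase of mesophyll, was at 4.96 or more on every array, while the root hair gene EXPA7 and the stem cell gene CLV3 did not exceed −0.26 and −0.61.

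AT5G44020 was a strongly expressed leaf transcript wherever at least 1 of the antiporters was intact. In wild type it read 2.27, 1.99 and 2.40 on replicates 1 to 3, which placed it between the 95.6th and 97.2nd percentile of the probe sets of those arrays. In nhx5-2 it read 1.93, 2.19 and 2.37, and in nhx6-2 it read 1.88, 2.29 and 1.91. The 3 genotypes overlapped throughout, with means of 2.22 ± 0.21, 2.16 ± 0.22 and 2.03 ± 0.23 (SD, n = 3).

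In the double knockouts the AT5G44020 signal sat far lower. It read −0.24, −0.25 and −0.13 in nhx5-2/nhx6-2, a mean of −0.21 ± 0.07 (SD, n = 3), and 0.41, −0.17 and −0.12 in nhx5-1/nhx6-1, a mean of 0.04 ± 0.32. All 6 double knockout arrays lay below the other 9, with 1.47 units between the nearest of them. On each double knockout array the signal exceeded every no-target control probe set, by 0.11 units or more. These controls are a low bar: on each double knockout array the median of all probe sets also lay above the highest of them. The no-target median, a lower bar still, was exceeded by 21963 of 22746 probe sets on at least 3 arrays. Exceeding the controls therefore does not show that the gene was still expressed. The percentile of AT5G44020 was 53.0 to 59.2 in nhx5-2/nhx6-2 and 54.2 to 77.5 in nhx5-1/nhx6-1. Replicate 1 of nhx5-1/nhx6-1 stood above its 2 sister arrays, and the SD of that genotype was as large as or larger than that of 98.2% of the 1951 probe sets within 0.1 units of the same mean.

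AT1G04040 followed the same order of genotypes. It read 1.70, 1.44 and 1.88 in wild type, 1.36, 1.58 and 1.70 in nhx5-2, and 1.21, 1.67 and 1.13 in nhx6-2. Means were 1.67 ± 0.22, 1.55 ± 0.17 and 1.34 ± 0.29 (SD, n = 3), and neighbouring genotypes in this order overlapped. In nhx5-2/nhx6-2 it read −0.21, −0.25 and −0.21, and in nhx5-1/nhx6-1 it read −0.22, −0.13 and −0.22, with means of −0.22 ± 0.02 and −0.19 ± 0.05. Again the 6 double knockout arrays lay below the other 9, here by at least 1.27 units. The tightness of the double knockout values did not set AT1G04040 apart, since 18.9% and 21.6% of probe sets at the same level in the 2 lines had an SD as small or smaller. On nhx5-1/nhx6-1 replicate 3 its signal exceeded the highest no-target control by only 0.012 units, so this probe set was close to the background of that array.

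**Figure D1:**
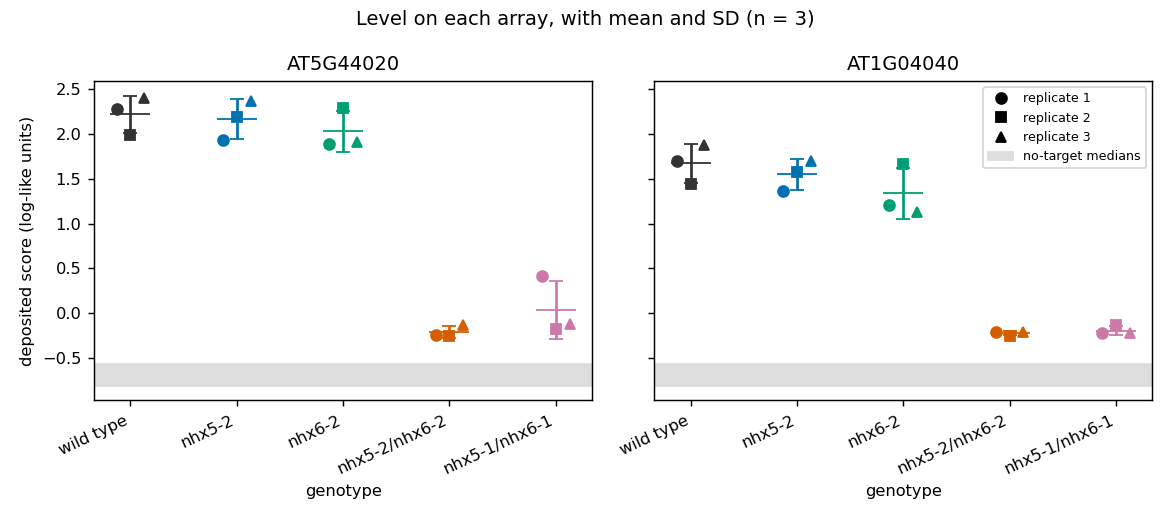
Deposited score of AT5G44020 and AT1G04040 on each of the 15 arrays by genotype, with the mean and SD (n = 3) as bars and the range of no-target medians (−0.81 to −0.57) as a grey band. Wild type and both single knockouts share a high level, both double knockouts lie near −0.2, and AT5G44020 on nhx5-1/nhx6-1 replicate 1 stands at 0.41.

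Complete separation of the 6 double knockout arrays below the other 9 was met by 613 of 22746 probe sets, or 2.69%. Since the genes were chosen on these arrays, nothing is read from their being among them. Against wild type alone, 17.6% of probe sets had all arrays lower in nhx5-2/nhx6-2 and 15.1% in nhx5-1/nhx6-1. As descriptions, AT5G44020 differed from wild type by −2.43 ± 0.16 units in nhx5-2/nhx6-2 and by −2.18 ± 0.16 in nhx5-1/nhx6-1 (standard error of the limma fit, n = 3), about 11.8 and 9.18 times lower on the spike-in scale. It held the lowest difference of all probe sets in both comparisons. For AT1G04040 the corresponding differences were −1.89 ± 0.13 and −1.86 ± 0.13 units, about 6.88 and 6.66 times lower, which ranked 4 and 3 from the lowest. In these comparisons 5.54% and 6.9% of all probe sets fell at an adjusted p under 0.05. The 3′ minus 5′ signal moved with the second of them, and with it as a covariate AT5G44020 lay at −2.04 ± 0.32 units and AT1G04040 at −1.59 ± 0.25 in nhx5-1/nhx6-1. Over the 15 arrays it had an r of −0.748 with AT5G44020 and −0.762 with AT1G04040, and its part in the result was not tested.

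The single knockouts carry the question of whether losing 1 antiporter already lowers these transcripts. No difference passed the test for either gene. In nhx5-2 AT5G44020 differed from wild type by −0.06 ± 0.16 units, with a 95% interval of −0.40 to 0.29 and a limma adjusted p of 0.998, and AT1G04040 by −0.12 ± 0.13 (−0.40 to 0.16, adjusted p 0.975). In nhx6-2 AT5G44020 differed by −0.19 ± 0.16 (−0.54 to 0.16, adjusted p 1). The size of AT1G04040 in nhx6-2 was the largest of the 4, −0.33 ± 0.13 units (−0.62 to −0.05), about 1.40 times lower, with an unadjusted limma p of 0.0236 and an adjusted p of 0.567. Its nhx6-2 arrays at 1.21 and 1.13 lay below all wild type arrays, and replicate 2 at 1.67 lay among them.

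Across all probe sets 0.0659% passed in nhx5-2 and 0.29% in nhx6-2. The lower ends of the intervals were −0.40 units in nhx5-2 and −0.62 in nhx6-2, against double knockout differences of −1.86 or lower. The 3′ minus 5′ signal was lower in both single lines than in wild type, without overlap. Adding it as a covariate gave AT5G44020 differences of −0.15 ± 0.26 units in nhx5-2 and −0.26 ± 0.22 in nhx6-2. For AT1G04040 it gave −0.32 ± 0.20 and −0.47 ± 0.17, and none of the 4 passed. Leaving out wild type replicate 2 moved nhx5-2 to −0.17 for AT5G44020 and −0.24 for AT1G04040, and leaving out wild type replicate 3 moved them to 0.03 and −0.02. In nhx6-2 AT5G44020 stood at −0.32 without replicate 2 of that line and at −0.10 without wild type replicate 3. These tests share the wild type arrays with the comparison that chose the genes.

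**Figure D2:**
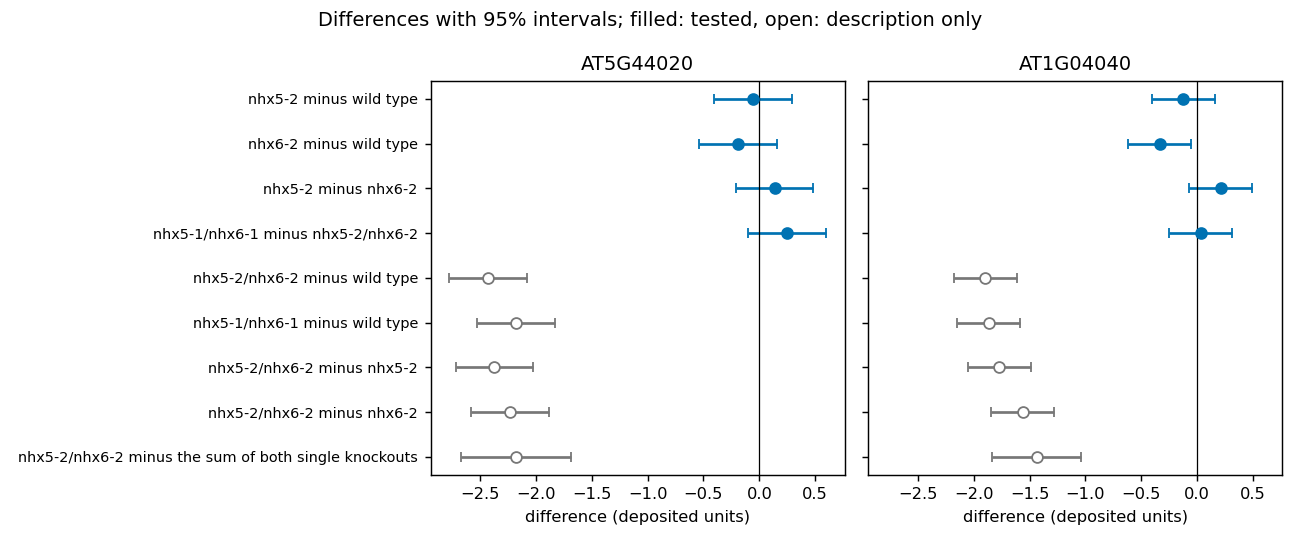
Differences between genotypes for AT5G44020 and AT1G04040 in deposited units, as points with 95% intervals from the limma fit. Filled points (single knockouts, single against single, double against double) were tested and lie between −0.33 and 0.25, while open points, a double knockout against wild type, a single knockout or the sum of both, are descriptions and lie between −2.43 and −1.44. The double against double test used arrays on which the genes were chosen.

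The single knockouts were also set against each other, a comparison without wild type or double knockout arrays. AT5G44020 was 0.14 ± 0.16 units higher in nhx5-2 than in nhx6-2 (−0.21 to 0.48) and AT1G04040 0.21 ± 0.13 higher (−0.07 to 0.49), both with a limma adjusted p of 1. Leaving out 1 array gave 0.03 (without nhx5-2 replicate 3) to 0.27 (without nhx6-2 replicate 2) for AT5G44020, and 0.11 (without nhx6-2 replicate 3) to 0.37 (without nhx6-2 replicate 2) for AT1G04040. Here 0.0132% of all probe sets passed. For both genes the arrays of the lines overlapped.

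The double knockouts of different alleles were compared in the same way. The genes were chosen for being low on these same 6 arrays, so this test is not independent of the choice, which favours a small difference. AT5G44020 was 0.25 ± 0.16 units higher in nhx5-1/nhx6-1 than in nhx5-2/nhx6-2, with an interval of −0.10 to 0.59 and an adjusted p of 0.59 in the limma fit. Without nhx5-1/nhx6-1 replicate 1 that difference was 0.06, and without replicate 2 it was 0.35. AT1G04040 differed by 0.03 ± 0.13 units (−0.25 to 0.31, adjusted p 0.951), and its sign turned to −0.02 with the arrays shifted to one median and −0.03 after quantile normalization. Among all probe sets 0.378% passed.

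Because nhx5-2/nhx6-2 carries the alleles of both single lines, the 3 mutants and wild type form a complete set for loss of either gene and of both. With NHX5 already lost, the further loss of NHX6 went with a difference of −2.37 ± 0.16 units for AT5G44020 and −1.77 ± 0.13 for AT1G04040. With NHX6 already lost, the further loss of NHX5 went with −2.23 ± 0.16 and −1.56 ± 0.13. Both genes had all double knockout arrays below those of either single line, as had 13.4% of probe sets against nhx5-2 and 12.9% against nhx6-2. The double knockout departed from the sum of both single differences by −2.18 ± 0.23 units for AT5G44020, the lowest value of all probe sets, and by −1.44 ± 0.18 for AT1G04040, which ranked 8. Of all probe sets 0.0528% were lower than additive at an adjusted p under 0.05. These values rest on the double knockout arrays and are descriptions only.

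Both genes also varied together among the 9 arrays of wild type and the single knockouts. There Pearson's r between the genes was 0.956 and Spearman's rho 0.967. Without the 2 arrays farthest from the median AT5G44020 level, nhx6-2 replicates 1 and 3, r was 0.961. Wild type replicate 2, nhx5-2 replicate 1 and nhx6-2 replicates 1 and 3 had low scores for both genes. Wild type replicate 3 and nhx5-2 replicate 3 had high scores for both. On nhx5-2 replicate 1, an array of narrower spread, the percentiles of 96.4 and 93.5 lay above those of the other low arrays. Both values of a point come from the same RNA and array, and r is given as a description. The median r over all probe sets on these arrays was 0.0048 with AT5G44020 and 0.014 with AT1G04040. The 3′ minus 5′ signal had an r of −0.053 with AT5G44020 and 0.088 with AT1G04040 on the same 9 arrays. For the SD of all values on an array, r was 0.29 and 0.151.

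Among the 6 double knockout arrays r was −0.109 and rho 0.029. AT1G04040 spanned only −0.25 to −0.13 on them, so these few arrays cannot show whether a relation was absent. There AT5G44020 was higher on nhx5-1/nhx6-1 replicate 1 alone, and AT1G04040 was at −0.22 on that array, within the range of the others. Over all 15 arrays r was 0.987, a value carried by the gap between the 2 clusters.

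**Figure D3:**
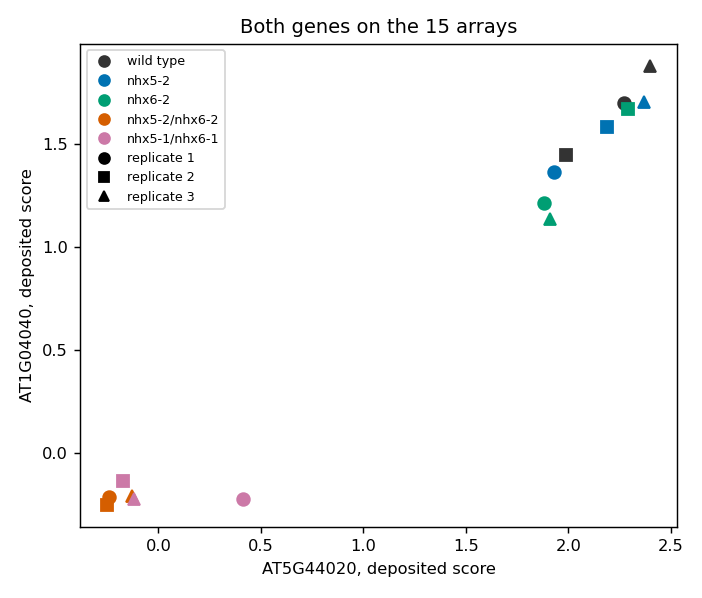
AT1G04040 against AT5G44020 in deposited units on the 15 arrays, coloured by genotype, with the replicate number as the symbol. The 9 arrays of wild type and single knockouts rise along a line (r = 0.956), and the 6 double knockout arrays form a cluster near −0.2, with nhx5-1/nhx6-1 replicate 1 to its right.

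Few other HAD-type acid phosphatase genes could be read for a fall, since most had a wild type signal near the no-target controls. A list of 8 further genes of this family, VSP1 and VSP2 included, was drawn up from general knowledge of the family, since the tables used give most of them by identifier only. Of the 6 with a probe set, AT2G39920 rose in both double knockouts. The other 5 were not called in either line, and no gene of the list was called lower. The median difference of the 6 was 0.043 units in nhx5-2/nhx6-2 and 0.048 in nhx5-1/nhx6-1, beside 0.00054 and 0.0061 over all probe sets, and 9.81% and 12% of all probe sets were called in either direction (4.27% and 5.13% as higher).

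AT2G39920 read −0.64, −0.54 and −0.63 in wild type, −0.29, −0.27 and −0.27 in nhx5-2/nhx6-2 and −0.05, −0.15 and 0.06 in nhx5-1/nhx6-1. Its values thus went from the background level in wild type to a higher but still low level, without overlap. In nhx5-2/nhx6-2 they lay below those of AT5G44020 and AT1G04040 on the same arrays. As for AT5G44020, values this low do not show by themselves that the gene was expressed. All arrays were higher than wild type for 16.4% of probe sets in nhx5-2/nhx6-2 and 11.1% in nhx5-1/nhx6-1. The rise was 0.32 ± 0.06 units (limma adjusted p 0.00432) in nhx5-2/nhx6-2 and 0.56 ± 0.06 (adjusted p 1e-04) in nhx5-1/nhx6-1. Adding the RNA quality measure as a covariate gave 0.47 units for the second, with a limma adjusted p of 0.18. With that covariate the calls over all probe sets in this comparison went from 2736 to 24, so the loss was not particular to AT2G39920. The covariate did not overlap between nhx5-1/nhx6-1 and wild type, so RNA quality and genotype cannot be told apart there. Without the covariate AT2G39920 differed by 0.09 ± 0.06 and 0.12 ± 0.06 units in nhx5-2 and nhx6-2, which did not pass (adjusted p 0.94 and 0.852). The difference between the double knockouts, 0.23 ± 0.06 units, had an adjusted p of 0.119.

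Of the remaining family genes, AT4G29260 and AT5G51260 gave a clear but modest signal. AT4G29260 lay between −0.01 and 0.43 over the 15 arrays and differed from wild type by −0.08 ± 0.08 units in nhx5-2/nhx6-2 and −0.16 ± 0.08 in nhx5-1/nhx6-1 (limma adjusted p 0.781 and 0.255). After quantile normalization the second was −0.20 with an adjusted p of 0.0411. AT5G51260 ranged from −0.14 to 0.34 and differed by 0.04 ± 0.10 and 0.05 ± 0.10. AT2G38600, AT4G25150 and AT4G29270 stayed between −0.68 and −0.33 on all arrays, at or just above the no-target controls, so little can be read from them.

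**Figure D4:**
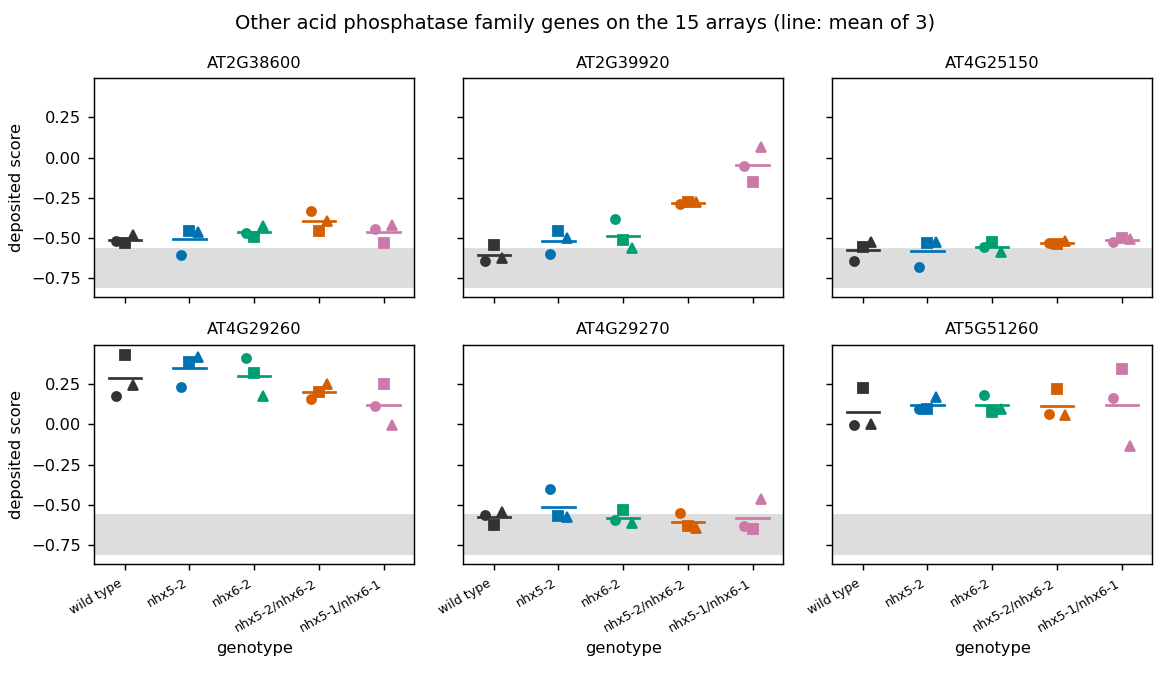
Deposited score of 6 further HAD-type acid phosphatase genes on the 15 arrays by genotype, with lines for means of 3 and the no-target medians (−0.81 to −0.57) as a grey band. AT2G39920 averages −0.60 in wild type, within the band, and −0.52 in nhx5-2 and −0.48 in nhx6-2, just above it. In the double knockouts it averages −0.28 and −0.05. The other 5 keep values that overlap wild type in at least 1 of the double knockouts.

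Purple acid phosphatases, metal-containing enzymes that release phosphate in the vacuole and cell wall, are unrelated in sequence to the HAD type. Of 29 such genes 3 had a probe set. AT1G13750 rose by 0.48 ± 0.11 units in nhx5-2/nhx6-2 (limma adjusted p 0.0167), with values of 0.22, 0.28 and −0.03 against −0.31, −0.26 and −0.39 in wild type, and the arrays did not overlap. In nhx5-1/nhx6-1 it differed by 0.26 ± 0.11 (limma adjusted p 0.17), which did not pass, and by 0.41 with the RNA quality covariate (adjusted p 0.723). The call in nhx5-2/nhx6-2 was lost when wild type replicate 1 or 3 was left out (limma adjusted p 0.0569 and 0.0785), and likewise for nhx5-2/nhx6-2 replicate 1 or 2 (0.0762 and 0.0793). AT1G25230 differed by 0.02 ± 0.09 and 0.07 ± 0.09 units and did not pass, nor did PAP20, which was at the background level on 14 arrays and at 0.14 on nhx5-1/nhx6-1 replicate 3.

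Jasmonate induces the vegetative storage proteins, and 3 of 19 jasmonate genes had a probe set. None passed the test in a double knockout, where 9.81% and 12% of all probe sets did, with medians of 0.07 units in nhx5-2/nhx6-2 and 0.33 in nhx5-1/nhx6-1. OPCL1, a ligase of jasmonate synthesis, differed by 0.32 ± 0.18 and 0.54 ± 0.18 units (limma adjusted p 0.388 and 0.0696), and all of its double knockout arrays were above those of wild type, as for 16.4% and 11.1% of all probe sets. In nhx5-1/nhx6-1 its adjusted p was 0.0346 and 0.0249 without nhx6-2 replicates 2 and 3, and 0.0423 without nhx5-1/nhx6-1 replicate 2, but 0.252 without wild type replicate 1 and 0.203 without nhx5-1/nhx6-1 replicate 1. The RNA quality covariate turned the direction of OPCL1 in nhx5-1/nhx6-1, to −0.05 units (limma adjusted p 1), and left 0.18 in nhx5-2/nhx6-2 (adjusted p 0.81). Its values in nhx5-1/nhx6-1 and wild type did not overlap, so RNA quality and genotype cannot be told apart in that comparison. THI2.1, a thionin gene induced by jasmonate, differed by 0.07 ± 0.11 and 0.33 ± 0.11 units (adjusted p 0.93 and 0.0717). Its nhx5-1/nhx6-1 arrays read −0.31, 0.14 and −0.52, and without replicate 3 the difference was 0.48 with an adjusted p of 0.00471. The defensin gene PDF1.2 stayed between −0.78 and −0.43. None of 17 genes of phosphate starvation and none of 20 genes of vacuolar sorting had a probe set of their own, so the members could not be read against those processes.

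Of 33 marker genes for leaf and other cell types 5 had a probe set: RCA, FMA, TRY, EXPA7 and CLV3. Of these the trichome patterning gene TRY passed in the double knockouts, falling by 0.34 ± 0.07 and 0.32 ± 0.07 units (limma adjusted p 0.00888 and 0.013, beside 5.54% and 6.9% of all probe sets called lower), from 0.55 to 0.67 in wild type to 0.24 to 0.31 in both lines. It was the 1 measured gene of 4 trichome markers, and its part in the levels of the acid phosphatase-like genes was not tested. The guard cell gene FMA stayed between −0.31 and −0.16 over all arrays. In whole leaves, fewer cells of a type and less RNA per cell cannot be told apart.

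The chromosomal surroundings of the members were also examined. Among the 3 nearest measured genes on each side of AT5G44020, and likewise of AT1G04040, none of the 12 passed the test in either double knockout, beside 9.81% and 12% of all probe sets, so a count of 0 in 12 is near that share. The largest differences beside AT5G44020 were those of AT5G43960, −0.31 ± 0.11 and −0.34 ± 0.11 units (limma adjusted p 0.116 and 0.0632), and beside AT1G04040 that of AT1G04140 in nhx5-1/nhx6-1, 0.20 ± 0.08 (adjusted p 0.157). The direct neighbours AT5G44010 and AT1G04030 were at the background level on most arrays, between −0.81 and −0.47.

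By Pearson's r over the 15 arrays, the probe sets most like AT5G44020 among 13512 others of 1 gene were AT1G04040 (0.987), AT4G23820 (0.984), AT1G29660 (0.976), CSLA03 (0.974), a cellulose synthase-like gene, and AT3G05900 (0.971). Those most like AT1G04040 were AT1G29660 (0.989), AT5G44020 (0.987), the actin gene ACT11 (0.975), SWEET2, a sugar transporter of the vacuolar membrane (0.975), and AT4G23820 (0.971). The median r over all these probe sets was near 0, at −0.028 and −0.027. Such values mostly restate the gap between double knockouts and the rest, which 12 and 21 probe sets matched with an r of at least 0.95.

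The genes alike differed in the size of that gap. AT1G29660 had means of 3.26, 3.16 and 3.10 units in wild type, nhx5-2 and nhx6-2 against 1.97 and 1.88 in the double knockouts. SWEET2 had 1.49, 1.34 and 1.19 against 0.44 and 0.37. AT1G29660, SWEET2 and AT3G05900 shared the order of AT1G04040, with nhx6-2 the lowest of the 3. AT4G23820, CSLA03 and ACT11 had nhx5-2 the lowest of the 3. The range of genotype means was 2.43 units for AT5G44020 and 1.89 for AT1G04040, but 0.52 for AT3G05900 and 0.63 for CSLA03.

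The raised AT5G44020 value on nhx5-1/nhx6-1 replicate 1 was shared by part of these genes. AT4G23820 read 0.15 there against −0.13 and −0.14 on replicates 2 and 3, CSLA03 −0.19 against −0.42 and −0.48, and AT3G05900 0.43 against 0.11 and 0.09. ACT11, at −0.42 against −0.42 and −0.48, and AT1G29660, at 1.91 against 2.01 and 1.71, did not stand out on that array, and neither did AT1G04040. The first 3 were picked by their likeness over arrays that include this one.

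**Figure D5:**
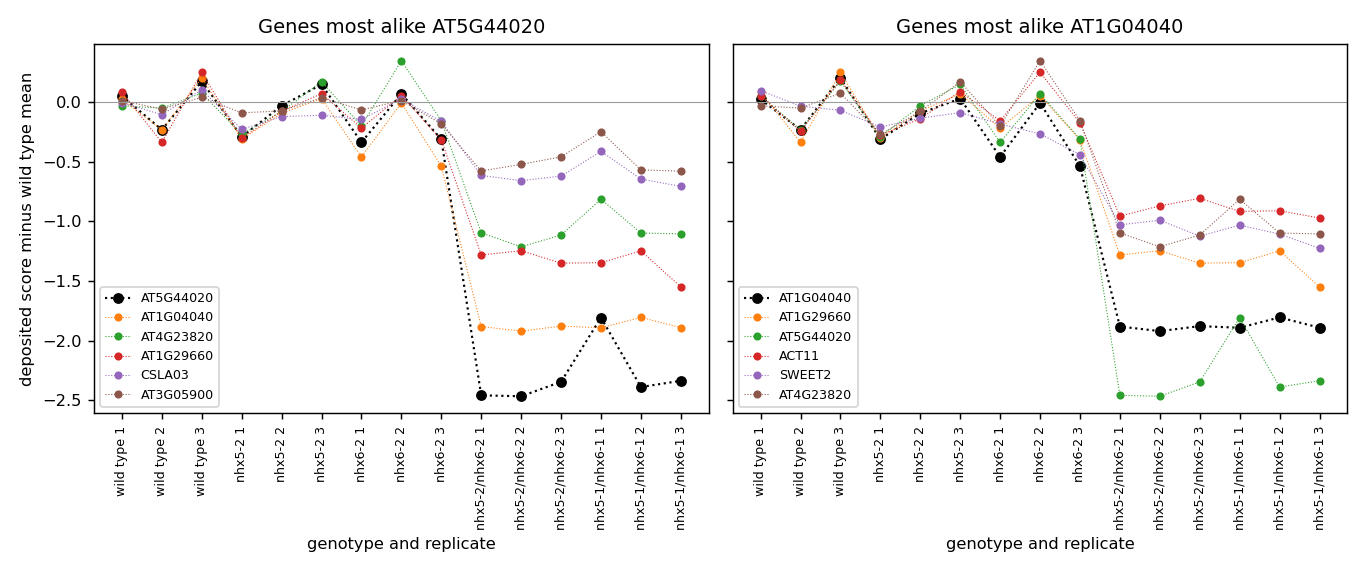
Deposited score minus the wild type mean for AT5G44020 (left, black) and AT1G04040 (right, black) and for the 5 genes most like each over the 15 arrays; dotted lines only guide the eye between arrays. All of these genes lie lower on the 6 double knockout arrays, by about 0.5 units for AT3G05900 and 2.43 units for AT5G44020 in nhx5-2/nhx6-2, as genotype means.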

How the data were processed

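Scores for each probe set on each array were deposited by the authors as 1 table. How they were background-corrected, normalized and logged is not stated in these sources, and the score was used as deposited. RNA came from a Qiagen extraction and 6 µg were labelled, per the labels' protocols. Of 22810 probe sets, 64 controls were left out of the tests, leaving 22746. The annotation given with the files assigned 13513 to 1 gene, 503 to several and listed 8730 not at all. Gene names followed the TAIR10.1 gene table, which 13436 probe sets matched.

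All 15 arrays entered 1 limma fit (version 3.58.1, R 4.3.3, lmFit and eBayes) that gave each genotype its own mean, and p values were adjusted over all 22746 probe sets by the Benjamini-Hochberg method at a threshold of 0.05. Errors of differences are standard errors of that fit with 13.5 degrees of freedom, and intervals are at 95% and unadjusted. The fit was tested on simulated data, where 100% of the probe sets changed by 1 unit between nhx5-2 and wild type were recovered. All simulated probe sets had the same SD, and the shift exceeded every single knockout difference of the members. The recovery therefore does not show that differences of their size would be found. With 3 arrays a group, the number of arrays limits the precision. Spike-in concentrations (1.5, 5, 25 and 100 pM) were assumed from the array maker's nominal scheme.

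The members and lists were chosen with earlier results of these data known. Named were the members, all measured HAD-type genes, up to 4 genes of each other list past the threshold, the 5 most alike and 3 neighbours a side. OPCL1, THI2.1, PDF1.2, AT1G25230 and PAP20 were named to account for short lists. Alternatives were the replicate block, leaving out arrays, 2 scalings, the 3′ minus 5′ covariate, another variance prior, a dim filter and fits on the compared genotypes.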

Additional observations from a re-analysis of the deposited data

How the results depend on the processing

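The differences of both genes between double knockouts and the rest kept their sign in all 23 alternatives. The genes were chosen for these falls and the arrays did not overlap, so the alternatives could hardly turn the sign. Leaving out 1 array at a time gave −2.54 to −2.34 and −2.36 to −2.07 units for AT5G44020 in nhx5-2/nhx6-2 and nhx5-1/nhx6-1 against wild type, and −2.01 to −1.79 and −1.98 to −1.76 for AT1G04040. With the 3′ minus 5′ covariate AT1G04040 moved to −1.59 against wild type in nhx5-1/nhx6-1, and to −1.51 and −1.36 for nhx5-2/nhx6-2 against nhx5-2 and nhx6-2. None of the tested differences of either gene passed in any alternative. The test between the double knockouts used arrays on which the genes were chosen. For AT5G44020 in nhx5-2 against wild type the sign turned to 0.061 when both arrays of low SD, or nhx5-2 replicate 1 alone, were dropped, to 0.0329 without wild type replicate 3, and to 0.0323 after quantile normalization. Leaving out 1 array gave −0.17 to 0.061 there and −0.32 to −0.10 in nhx6-2, and −0.24 to −0.02 and −0.50 to −0.23 for AT1G04040. Between the double knockouts it gave 0.06 to 0.35 for AT5G44020 and 0.0021 to 0.05 for AT1G04040, and the covariate gave 0.35 and 0.24. For AT1G04040 the difference between the double knockouts turned to −0.0176 with arrays shifted to one median and −0.0266 after quantile normalization. The cause was not tested.

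The replicate numbers gave no sign of pairing: deviations from genotype means of same-numbered arrays correlated at −0.361 to 0.354 (median −0.048). Those of different-numbered arrays correlated at −0.339 to 0.339 (median 0.018). The replicate block left the differences as they were, for example −0.33 for AT1G04040 in nhx6-2 against wild type (adjusted p 0.639). The correlation of both genes turned to −0.109 over the 6 double knockout arrays and was 0.686 for deviations from genotype means, both chosen after seeing the data. Of the counts, the HAD-type list in nhx5-1/nhx6-1 had 2 genes called after quantile normalization and 0 with the covariate, against 1. The jasmonate list there had 1 called without both arrays of low SD, against 0. Over all probe sets the calls against wild type ranged from 1165 to 4379 in nhx5-2/nhx6-2 (2232 as reported), from 24 with the covariate to 3843 without both arrays of low SD in nhx5-1/nhx6-1 (2736), from 3 to 33 in nhx5-2 (15) and from 7 to 396 in nhx6-2 (66). Between the double knockouts they ranged from 4 to 392 (86), and between the single knockouts from 2 to 5 (3).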

Other observations

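Within genotypes, with each array taken as its deviation from the genotype mean, AT5G44020 and AT1G04040 correlated at r = 0.686 over the 15 arrays. This ranked 305 among 13512 probe sets for AT5G44020, and the value over the 9 arrays without the double knockouts was 0.971. Most like AT5G44020 by this measure was CSLA03 (0.946), and most like AT1G04040 was ACT11 (0.954), followed by AT4G28780 (0.942) and the transcription factor gene BZIP61 (0.935). BZIP61 and AT4G28780 also had lower means in the double knockouts: AT4G28780 had 0.71 units in wild type, 0.46 in nhx5-2 and 0.68 in nhx6-2 against −0.36 in nhx5-2/nhx6-2 and −0.12 in nhx5-1/nhx6-1.

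Over the 9 arrays of wild type and the single knockouts, the probe set most like AT1G04040 was AT3G05060 (r = 0.978), with means of 1.15, 1.05 and 0.89 units there and 0.43 and 0.52 in the double knockouts. AT1G20220 (0.953) and AT5G60990 (0.948) came after AT5G44020. The probe set most like AT5G44020 on these arrays, AT3G42900 (0.974), was at the no-target level throughout, between −0.86 and −0.71, so a high r over so few arrays is also reached by probe sets with no clear signal. This choice of arrays was made after seeing the data.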
